A study of Mus musculus with 6 samples.

Results

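CD8 T cells kill tumor cells with granules that hold perforin, which opens the target membrane, and granzymes, proteases that pass through it. Under lasting contact with antigen they also carry inhibitory receptors, among them PD-1 (gene Pdcd1), CTLA-4, LAG-3 and TIM-3, and a less differentiated pool marked by the factor TCF-1 (gene Tcf7) renews the killing cells. How far killing genes and inhibitory receptors go together in single cells, and how both look when T cells come from mice with a targeted Pdcd1 gene, are the questions taken up here for CD8 cells of melanoma that were not dividing.

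In the non-cycling CD8 tumor cells of the Pdcd1 cKO library, the killing genes Nkg7, Gzmb, Prf1, Gzma and Gzmk were higher than in the control library. Gzmc was lower in sum, but its direction depended on which cells were taken. The inhibitory receptors Ctla4 and Lag3 had similar levels in both, though part of the Ctla4 signal may be free RNA. Havcr2 and Tigit were too close to background or too sparse to compare. The chemokine gene Ccl5 was higher and Xcl1 much lower in Pdcd1 cKO. Cells with melanoma genes also had more Ccl5 in that library. Inside each library Gzmb and Ccl5 varied widely from cell to cell, Ctla4 and Srgn had a similar spread in both libraries, and no relation between a cell's killing-gene and inhibitory totals was detectable at equal depth, where inhibitory counts were low.

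The study took thymus, spleen and B16-OVA melanoma, an ovalbumin-expressing line grown under the skin for 12 days, from C57BL/6 mice and made 6 single-cell libraries with PIPseq, in which each captured RNA molecule carries a molecular identifier (UMI). Pdcd1fl/fl denotes mice with a floxed Pdcd1 gene and no Cre, the controls, and Pdcd1 cKO denotes mice that also carry E8I CD8-Cre, which deletes the gene in CD8 T cells after positive selection. Each tumor library pooled cells of 3 mice, enriched with CD8 microbeads after dead cells had been removed. The thymus and spleen libraries are labelled baseline, and the study describes 1 mouse per genotype for each. There was 1 library per genotype and tissue.

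The 6 libraries held 16651 barcodes. The tumor Pdcd1fl/fl library had 457 barcodes and 9401747 UMIs, and the tumor Pdcd1 cKO library had 561 barcodes and 7924590 UMIs. Of these, 456 and 561 had 500 or more genes, 1000 or more UMIs and no more than 20% mitochondrial UMIs. Members were then chosen by raw UMIs of 17 genes: at least 3 of Cd8a and Cd8b1 together (the CD8 coreceptor chains), under 3 of Ccr7 (a lymph-node homing receptor), under 50 of 4 melanoma genes, under 10 of 4 macrophage genes and under 5 of 6 cell-division genes. This left 255 cells, 65 from Pdcd1fl/fl and 190 from Pdcd1 cKO. They made up 14.3% and 33.9% of the filtered cells of the 2 libraries.

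CD8-selected cells outside the group were Ccr7-low and cycling (88 and 210 cells with at least 5 division-gene UMIs) or Ccr7-high (100 and 36 cells). Of the Ccr7-high cells, 59 and 20 had under 5 division-gene UMIs, so that class holds dividing cells too. The mix thus differed: 39.5% of the CD8-selected cells were Ccr7-high in Pdcd1fl/fl and 8.26% in Pdcd1 cKO. Members held 626995 and 1717684 UMIs in total. The median member had 8262 UMIs in Pdcd1fl/fl (6394 to 24849) and 7726.5 in Pdcd1 cKO (5849 to 58252), with 1745 and 1749.5 genes. Depth per cell was therefore close between the libraries, and the Pdcd1 cKO sums rest on more cells.

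The counts used for the choice describe the members but test nothing. The summed CD8 chains had a median of 6 UMIs in Pdcd1fl/fl members and 7 in Pdcd1 cKO members. Just inside the limit of 3 lay 8 and 13 cells, and 13 and 11 otherwise eligible cells had 2. At 4 division-gene UMIs lay 6 and 24 members, and 5 and 23 cells with 5 fell outside. Ccr7 stood at 2 UMIs in 9 and 6 members and at 3 in 8 and 5 excluded cells. Members with any Ccr7 UMI were 35.4% of the Pdcd1fl/fl cells against 19 of 190 Pdcd1 cKO cells, so the limit sat inside a continuum, more so in the control library. The melanoma limit was far from any member: members had at most 6 and 17 such UMIs, and the nearest excluded cells 223 and 383. For the macrophage genes the highest members had 1 and 3 UMIs, and the nearest excluded Pdcd1 cKO cell had 27.

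Pdcd1 itself (ENSMUSG00000026285, GRCm39 chromosome 1, 93966027 to 93980312), the targeted gene, comes first. In members it had 101 UMIs in Pdcd1fl/fl and 190 in Pdcd1 cKO. That is 161 CPM (UMIs of the gene scaled to 1e6 UMIs of the summed members; 95% interval 131 to 196) against 111 CPM (95.4 to 128), a log2 ratio of −0.54 (−0.90 to −0.18). The intervals, here and below, hold counting error only and no variation between mice. Pdcd1 was thus lower in the Pdcd1 cKO library, but far from gone: 38 of 65 and 98 of 190 members had at least 1 UMI. Cycling CD8 cells gave 233 and 190.4 CPM and Ccr7-high CD8 cells 164 and 124 CPM, again lower in Pdcd1 cKO. Cells with melanoma genes had 1.52 and 1.75 CPM, far under the level in members. Whether the counted end of the transcript lies in the deleted part is not stated, so RNA left over does not measure protein. In the spleen the same selection gave 161 cells with 0 Pdcd1 UMIs in the library labelled Pdcd1fl/fl, against 31 UMIs (10.5 CPM) over 1426 cells of that labelled Pdcd1 cKO. Splenic Pdcd1 thus does not bear on the labels, at a depth where 3 UMIs, the floor set for a 0, are 10.4 CPM. Splenic Nkg7 (1342 and 1999 CPM) was higher where the label was Pdcd1 cKO, the direction seen in the tumor.

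The comparison of the tumor libraries asks how RNA levels in non-cycling tumor CD8 cells differ with the genotype of the donor mice. Over members, 1881 genes had at least 100 UMIs; 84 of these (4.47%) were at least 2-fold higher in Pdcd1 cKO and 11 (0.585%) at least 2-fold lower. With at least 20 UMIs, 5955 genes remained, of which 835 (14.0%) were higher and 228 (3.83%) lower, and their median log2 ratio was 0.17. Gene lists are set beside those values. With 1 library per genotype, the counts describe these libraries and have no replicate check.

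The cytotoxic list holds 26 granule and killing genes, 23 of which had at least 20 UMIs. Their median log2 ratio was 0.46 (order-statistic interval over genes 0.14 to 1.16). At least 2-fold higher were 8 (34.8%, beside 14.0% of all genes) and lower 1 (4.35%, beside 3.83%). Of the 23, 20 lay above 0, beside 3700 of all 5955 genes. Summed over the list, Pdcd1fl/fl members had 4517 CPM and Pdcd1 cKO members 6929.7 CPM. The median lay above that of all genes (0.17), which its interval includes, and 3 of the 8 (Unc13d, Gzmd and Fasl) rest on 1 cell or on few UMIs.

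Nkg7 (ENSMUSG00000004612, chromosome 7, 43086497 to 43087678), a granule membrane protein needed for full granule release, had 1652 CPM (1553 to 1756) in Pdcd1fl/fl and 2741 CPM (2663 to 2820.3) in Pdcd1 cKO. Its log2 ratio was 0.73 (0.63 to 0.83). Gzmb (ENSMUSG00000015437, chromosome 14, 56496295 to 56499717) encodes granzyme B, which starts apoptosis by cleaving caspases and their substrates. It had 705 CPM (641 to 774) and 1648 CPM, a log2 ratio of 1.23 (1.08 to 1.37). Prf1 (ENSMUSG00000037202, chromosome 10, 61133546 to 61140461), which encodes perforin, had 44.7 CPM (29.7 to 64.5) and 100.1 CPM (85.7 to 116), a log2 ratio of 1.16 (0.58 to 1.80). For these 3 genes the Pdcd1 cKO members were the higher, and the intervals of the 2 levels did not overlap.

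Granzymes A and K are trypsin-like proteases. Gzma had 22.3 CPM in Pdcd1fl/fl and 88.5 CPM in Pdcd1 cKO, a log2 ratio of 1.99 (1.20 to 2.89). Gzmk had 19.1 and 76.3 CPM, also with a log2 ratio of 1.99 (1.14 to 2.98). Both were low in the control members and much higher in Pdcd1 cKO, although from only 14 and 12 control UMIs. Under other choices of processing the Gzma ratio came down to 0.81 and the Gzmk ratio to 1.74. Gzmc (ENSMUSG00000079186, chromosome 14, 56468857 to 56479211), a granzyme of strongly activated cells, went the other way with 211 and 79.8 CPM, a log2 ratio of −1.40 (−1.76 to −1.04). Its RNA sat in few cells: 1 Pdcd1fl/fl cell held 47 of 132 UMIs and 1 Pdcd1 cKO cell 58 of 137. Without the highest cell of each library the ratio was −1.56, but among the 23 and 64 members without any division-gene UMI it was 0.98. The neighbouring granzymes showed no difference beyond counting error, with log2 ratios of 1.42 (−0.31 to 3.80) for Gzmd, 0.31 (−0.54 to 1.25) for Gzme and 0.46 (−0.16 to 1.13) for Gzmf.

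Genes that mature, pack and release granules were mixed. Ctsd, a lysosomal protease, had 254 and 406 CPM and a log2 ratio of 0.68 (0.43 to 0.94). Ctsc, which activates granzymes by trimming them, had 20.7 and 36.1 CPM with a log2 ratio of 0.80 (−0.08 to 1.79). Ctsw, a protease of killer cells, had 185 and 232 CPM with a log2 ratio of 0.32 (0.02 to 0.64). Srgn, the proteoglycan that holds granzymes in the granule, had 683 CPM in both libraries, a log2 ratio of 0.00 (−0.16 to 0.16). The packing scaffold was thus level between the genotypes while its main cargo was not.

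Vamp8 (0.14), Lamp1 (0.02), Lamp2 (0.33), Rab27a (0.43) and Stx11 (−0.37), genes of vesicle membranes and fusion, had log2 ratios whose intervals included 0. The fusion partner Stxbp2 had 10 and 55 UMIs and a log2 ratio of 1.01 (0.02 to 2.14). Unc13d, which primes granules for fusion, had the highest ratio of the list, 2.12 (1.08 to 3.37), but 66 of its 95 Pdcd1 cKO UMIs came from 1 cell; without the deepest cell of each library the ratio was 0.40. Fasl, a death ligand, was sparse at 4 and 25 UMIs with a log2 ratio of 1.19 (−0.34 to 3.17). Serpinb9, which shields the killer cell from its own granzyme B, had 92.5 and 67.0 CPM and a log2 ratio of −0.47 (−0.93 to 0.01), and the related Serpinb6b had a log2 ratio of 0.06 (−0.29 to 0.43). The gene for the granzyme was therefore higher in Pdcd1 cKO and the gene for its inhibitor was not. Gzmg and Gzmm had 8 and 4 UMIs in all and were not compared.

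**Figure D1:**
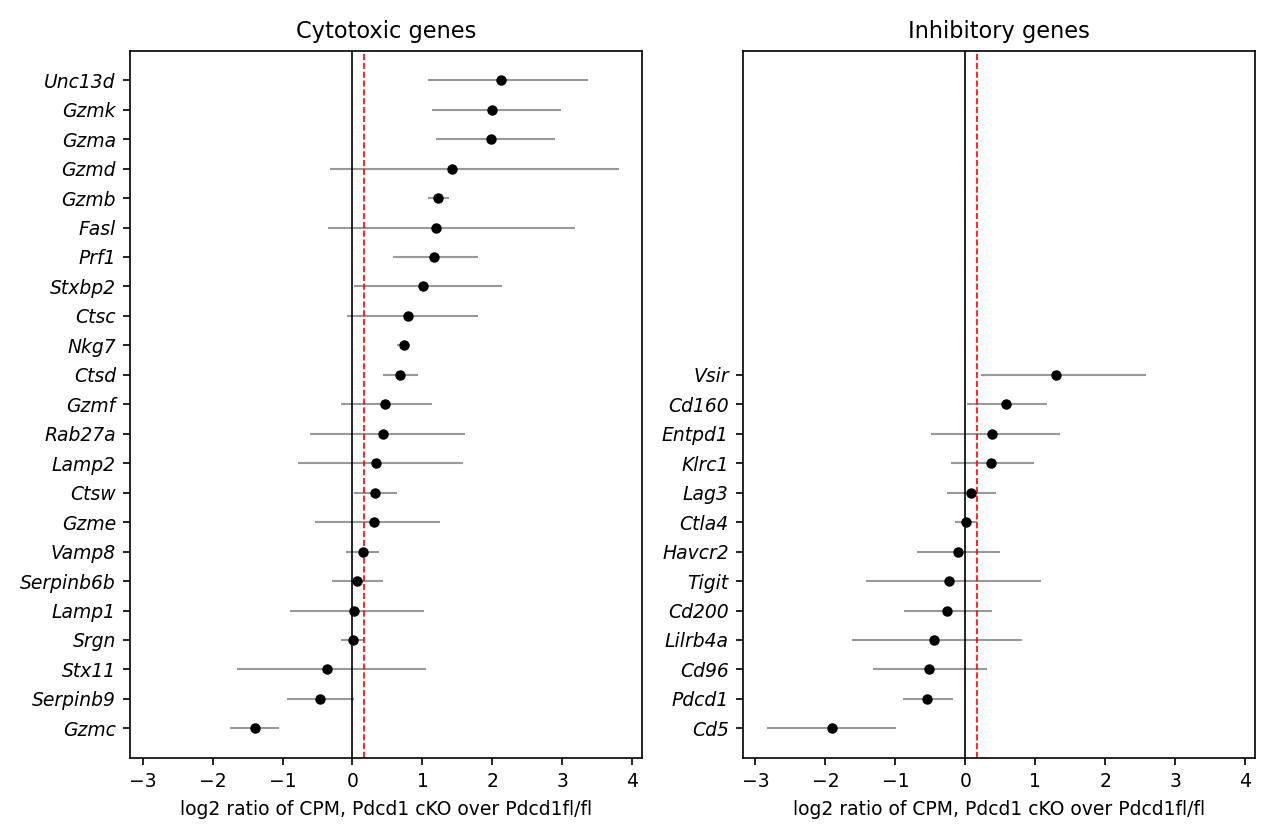
Points show the log2 ratio of CPM, Pdcd1 cKO over Pdcd1fl/fl, for the 23 cytotoxic and 13 inhibitory genes with at least 20 UMIs in non-cycling CD8 tumor cells, with 95% counting intervals; the dashed line is the median of all 5955 such genes (0.17). Of the cytotoxic genes 20 lie above 0, while the inhibitory genes lie on both sides (6 above 0 and 7 below). Of all 5955 genes, 3700 lie above 0.

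The inhibitory list holds 22 surface molecules, 13 of which had at least 20 UMIs. Their median log2 ratio was −0.11 (−0.52 to 0.38). At least 2-fold higher was 1 and lower 1 (7.69% each, beside 14.0% and 3.83% of all genes). The list summed to 1354 CPM in Pdcd1fl/fl and 1324 CPM in Pdcd1 cKO. The inhibitory list thus showed no common direction; its difference from the cytotoxic list was not tested.

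Ctla4, whose protein competes with CD28 for its ligands, had 694 CPM (630.1 to 762) and 699 CPM (659.6 to 739), a log2 ratio of 0.01 (−0.15 to 0.17). Lag3, a receptor for MHC class II, had 147 and 155 CPM, a log2 ratio of 0.08 (−0.26 to 0.44). Havcr2, which encodes TIM-3, had 55.8 and 51.8 CPM with a log2 ratio of −0.11 (−0.69 to 0.50). For these 3 receptors no difference was detectable at this depth. Tigit, a receptor for nectin-like ligands, had only 9 and 21 UMIs and a log2 ratio of −0.23 (−1.42 to 1.08).

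Differences in both directions appeared further down the list. Cd160, a receptor for HVEM, had 54.2 and 80.9 CPM and a log2 ratio of 0.58 (0.03 to 1.16). Vsir, which encodes VISTA, had 12.8 and 31.4 CPM and a log2 ratio of 1.30 (0.22 to 2.58). Cd5, which dampens T cell receptor signals, had 41.5 and 11.1 CPM and a log2 ratio of −1.91 (−2.84 to −0.997). Cd5 was thus much lower and Vsir and Cd160 somewhat higher in Pdcd1 cKO, each from few UMIs. The ectoenzyme gene Entpd1 (0.38), the NK-type receptor Klrc1 (0.37), the adhesion receptor Cd96 (−0.52), and Cd200 (−0.26) and Lilrb4a (−0.45) had intervals that included 0. The other 9 listed genes, among them Btla, Klrg1 and Cd101, stayed under 20 UMIs. The 5 core receptors (Pdcd1, Lag3, Havcr2, Tigit and Ctla4) also had a median of −0.11, with 2 above 0, and 10 genes the study names for its tumor cells, other than those used in the selection, had 0.30, with 7 above 0.

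Free RNA in the emulsion puts UMIs of T cell genes into cells that do not express them, so levels were set beside those of cells with melanoma genes (139 and 58 cells). Nkg7 had 25.7 and 95.4 CPM there, Gzmb 8.38 and 39.8 CPM, and Lag3 3.62 and 8.75 CPM, small parts of the levels in members. Ctla4 reached 190 and 217 CPM in the same cells, so a sizeable part of its signal in members may not be their own. Melanoma-gene cells were deeper than members (median 32272 and 35962.5 against 8262 and 7726.5 UMIs). An equal number of free UMIs per cell would be a smaller share there, so these levels can understate free RNA in members. Havcr2 was higher in melanoma-gene cells (91.0 and 89.7 CPM) than in members. Havcr2 in members therefore cannot be told from background and says nothing about TIM-3. Whether melanoma-gene cells express Havcr2 themselves was not tested.

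Genes of naive, memory and progenitor T cells were, in part, lower in Pdcd1 cKO. Of 22 listed, 14 had at least 20 UMIs, with a median log2 ratio of −0.25 (−2.04 to 0.39). At least 2-fold lower were 6 (42.9%, beside 3.83% of all genes) and higher 0 (beside 14.0%). The 6 include Tafa2, whose ratio belongs to whole libraries, and Satb1 and Tcf7, whose values depend on the choice of cells. Xcl1 (ENSMUSG00000026573, chromosome 1, 164759213 to 164763096), a chemokine that draws cross-presenting dendritic cells, had 520 CPM (465 to 579.6) and 71.6 CPM (59.5 to 85.4), a log2 ratio of −2.86 (−3.17 to −2.56). A single Pdcd1fl/fl cell held 94 of the 326 control UMIs, and without the highest cell of each library the ratio was −2.67. Dapl1, a gene of early memory-like CD8 cells, had 95.7 and 25.03 CPM with a log2 ratio of −1.93 (−2.53 to −1.35). Both genes were found in fewer cells as well as at lower sums in Pdcd1 cKO.

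The factor Klf2, which keeps homing receptors on, had 33.5 and 8.15 CPM with a log2 ratio of −2.04 (−3.13 to −0.99). Satb1, a chromatin organiser of immature T cells, had 39.9 and 16.9 CPM with a log2 ratio of −1.24 (−2.06 to −0.41), and −0.10 in cells without any Ccr7 UMI. Tcf7 had 12 and 8 UMIs and a log2 ratio of −2.04 (−3.53 to −0.63), which became 0.11 when 6 CD8 UMIs were required. These 3 factors were sparse and lower in Pdcd1 cKO, and the values of Satb1 and Tcf7 depend on the choice of cells. Cd27, a costimulatory receptor of less differentiated cells, was level at 86.1 and 87.9 CPM (log2 ratio 0.03, −0.43 to 0.51), as was the surface marker Ly6c2 (−0.11, −0.30 to 0.07). The list did not move as a block, since Foxp1, a quiescence factor, had a log2 ratio of 0.92 (−0.03 to 2.00).

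Tafa2 had the lowest ratio of that list, with 110.0 and 8.15 CPM and a log2 ratio of −3.76. The difference was not special to these cells. Control cells of every tumor class held 110.0 to 143 CPM of Tafa2, melanoma-gene cells included (137 CPM), and Pdcd1 cKO cells held 3.76 to 8.15 CPM. Splenic cells of the same selection held 6180 CPM where the library was labelled Pdcd1fl/fl and 2.70 CPM where it was labelled Pdcd1 cKO. The Tafa2 ratio therefore belongs to whole libraries and describes no CD8 state.

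Among chemokines and cytokines, 13 of 24 listed genes had at least 20 UMIs, with a median log2 ratio of 0.48 (−0.45 to 0.83). At least 2-fold higher were 2 and lower 1 (15.4% and 7.69%, beside 14.0% and 3.83% of all genes). Ccl5 (ENSMUSG00000035042, chromosome 11, 83416602 to 83425942), which attracts T cells and monocytes, had 807 CPM (738 to 880.5) and 2611 CPM (2535 to 2689), a log2 ratio of 1.69 (1.56 to 1.83). Melanoma-gene cells had 82.8 and 294 CPM of Ccl5, also higher in the Pdcd1 cKO library, though under the member CPM. These cells were deeper, so counted in UMIs per cell they lay nearer to members than the CPM show. Whether their Ccl5 was free RNA, and how much free RNA adds to the ratio in members, was not tested. Ifng, the cytokine that raises MHC on tumor cells, had 27.1 and 48.3 CPM with a log2 ratio of 0.83 (0.07 to 1.68), which vanished (0.000698) in cells with no division-gene UMI. Spp1, osteopontin, had 47.8 and 125 CPM with a log2 ratio of 1.38 (0.82 to 1.98). The effector chemokine Ccl5 and the progenitor chemokine Xcl1 thus parted in opposite directions, by the largest amounts of the list. Ccl3 had a log2 ratio of 0.83 (0.01 to 1.74), while Ccl4 (0.48, −0.05 to 1.03) and the lymphotoxin gene Ltb (−0.03, −0.38 to 0.33) had intervals that included 0.

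Of 23 factors tied to T cell receptor signalling and exhaustion, 16 had at least 20 UMIs, with a median log2 ratio of 0.28 (−0.54 to 0.73). Tox, the factor of the exhausted state, had 33.5 and 51.2 CPM and a log2 ratio of 0.61 (−0.09 to 1.37), which counting error alone could give. Irf8, induced by receptor signals in CD8 cells, had 105 and 193 CPM with a log2 ratio of 0.87 (0.49 to 1.28). Id2, which holds the effector program, had 325 and 395 CPM with a log2 ratio of 0.28 (0.05 to 0.51). Irf8 was the clearest of these and was higher in Pdcd1 cKO. Tbx21, the effector factor T-bet, had the highest ratio (1.03, −0.36 to 2.76), and Ikzf2, which encodes Helios, the lowest (−1.07, −2.20 to 0.10). Nr4a3, an early target of receptor signalling, had a log2 ratio of −1.02 (−1.99 to −0.02).

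Several genes of immediate signalling and stress were lower in Pdcd1 cKO. The AP-1 gene Junb had 269.5 and 107 CPM and a log2 ratio of −1.34 (−1.65 to −1.03), and Fos had 30.3 and 6.99 CPM with a log2 ratio of −2.12 (−3.29 to −0.9993). Dusp1, a phosphatase that ends kinase signals, had a log2 ratio of −0.9994 (−1.75 to −0.23). These genes also respond to tissue dissociation, and that was not tested. Their list of 21 genes had a median of −0.21 (−0.57 to 0.17), with Ier3 highest at 1.87 from 2 and 20 UMIs, so only some of its genes fell.

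Several genes of metal-, calcium- and sugar-binding proteins were higher in Pdcd1 cKO. The list had 14 genes with at least 20 UMIs and a median log2 ratio of 0.35 (−0.02 to 1.56). At least 2-fold higher were 4 (28.6%, beside 14.0% of all genes) and lower 0 (beside 3.83%). The metallothionein Mt1 had 396 and 1401 CPM with a log2 ratio of 1.82 (1.64 to 2.02), and Mt2 had 161 and 667 CPM with a log2 ratio of 2.05 (1.75 to 2.36). S100a6, a calcium-binding protein of effector cells, had 1375 and 2998 CPM with a log2 ratio of 1.12 (1.02 to 1.23). Lgals3, galectin-3, had 145 and 428 CPM with a log2 ratio of 1.56 (1.25 to 1.89). Macrophage-gene cells held 4333 and 9125 CPM of Lgals3, so free RNA may add to it. All 4 were higher in Pdcd1 cKO, whereas S100a10 was slightly lower (−0.23, −0.37 to −0.08) and Anxa6, an annexin, the lowest (−0.36, −0.79 to 0.08). Melanoma-gene cells held 2798 and 3035 CPM of Mt1, more than members did, so free RNA may add to Mt1, though its level there was close between the libraries.

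Costimulatory and cytokine receptors were mixed: 21 genes had a median log2 ratio of −0.12 (−0.49 to 0.33). At least 2-fold higher were 3 and lower 1 (14.3% and 4.76%, close to the 14.0% and 3.83% of all genes). Cd7, an adhesion receptor of T and NK cells, had 17.5 and 103 CPM and a log2 ratio of 2.55 (1.68 to 3.58). Il10ra, the IL-10 receptor chain, had a log2 ratio of 1.33 (0.37 to 2.46). Tnfrsf4, which encodes OX40, had 147 and 78.6 CPM with a log2 ratio of −0.90 (−1.29 to −0.50), and Tnfrsf18, which encodes GITR, had a log2 ratio of −0.49 (−0.77 to −0.21). The activation receptors OX40 and GITR were therefore lower in Pdcd1 cKO, while Tnfrsf9 (4-1BB) was nearly level at 0.18 (0.02 to 0.35) and Il2ra, at 9 and 12 UMIs, was lowest (−1.04, −2.41 to 0.39). Homing and residency genes (16 of 20) had a median of −0.15 (−0.69 to 0.71). The tumor-homing receptor Cxcr6 had 122.8 and 201 CPM with a log2 ratio of 0.71 (0.35 to 1.09), and the integrin chain Itgb1 was lowest at 54.2 and 19.8 CPM (−1.45, −2.18 to −0.72).

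T cell receptor and signalling genes had a median of 0.35 (0.20 to 0.44) over 29 genes. Above 0 were 23, and 9 had intervals above 0 (beside 3700 and 846 of all 5955 genes). At least 2-fold higher were 0 and lower 1 (3.45%), beside 14.0% and 3.83% of all genes. The adaptor Lat had 163 and 279 CPM with a log2 ratio of 0.78 (0.47 to 1.10), and Lcp2, its partner, had the highest ratio from few UMIs (0.83, −0.37 to 2.24). The 2 constant regions of the β chain differed: Trbc1 had 1134 and 656 CPM with a log2 ratio of −0.79 (−0.93 to −0.65), and Trbc2 had 1864 and 1929 CPM with a log2 ratio of 0.05 (−0.05 to 0.15). A cell uses 1 of them in its receptor; clones were not analysed here. Cd6, a relative of Cd5, was the lowest of the list (−1.45, −2.15 to −0.76).

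Interferon-stimulated genes (21 of 35 listed) had a median log2 ratio of 0.48 (0.19 to 0.92). At least 2-fold higher were 3 (14.3%, close to the 14.0% of all genes). Irf7 had 12.8 and 37.8 CPM with a log2 ratio of 1.57 (0.51 to 2.84), Isg20 a log2 ratio of 1.68 (0.35 to 3.38) and Isg15 0.93 (0.35 to 1.55). Xaf1 was the highest at 3.01, yet 145 of its 176 Pdcd1 cKO UMIs lay in 1 cell, and without the deepest cell of each library the ratio was 0.49. Ly6e, a surface protein, was the lowest at −0.69 (−0.88 to −0.50). In all, 16 of the 21 lay above 0, beside 3700 of all 5955 genes, and 9 had intervals above 0, beside 846 of all genes.

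Metabolic and housekeeping lists stayed close to the median gene. Glycolysis genes (23) had a median of 0.24 (0.03 to 0.38), with Bnip3, a mitophagy gene, highest at 1.89 (0.77 to 3.25), Aldoa, an aldolase, at 0.75 (0.57 to 0.94), and the lactate carrier Slc16a1 lowest at −1.99 (−3.25 to −0.80). Nuclear respiratory-chain genes (78) had a median of 0.15, with Sdhc highest (0.63) and Cox7a2l lowest (−0.51). Mitoribosome genes (76) also had 0.15, with Mrpl45 at 1.92 and Mrps10 at −0.72. Actin genes (25) had 0.22, from Flna at −0.82 to Wipf1 at 0.46, with Coro1a, an actin organiser of lymphocytes, at 0.22 (0.12 to 0.33). MHC class I genes (16) had 0.17, from H2-Q4 at −0.36 to Tap2 at 0.49. By contrast all 12 mitochondrially encoded genes were lower in Pdcd1 cKO (median −0.51, from mt-Nd4l at −0.81 to mt-Co3 at −0.05), as were 73 of 77 ribosomal protein genes (median −0.24, from Rpl30 at −0.50 to Rpl35 at 0.09). Ribosomal proteins took 41.3% and 36.1% of member UMIs, and this share alone pushes every other gene up in Pdcd1 cKO when totals are set equal.

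Division genes that the selection had not used (34) had a median of 0.30 (0.12 to 0.53), an interval that includes the 0.17 of all genes, with 6 (17.6%, beside 14.0% of all genes) at least 2-fold higher and 0 lower. The S-phase genes Tk1 and Rrm2 had log2 ratios of 1.18 (0.59 to 1.83) and 1.31 (0.46 to 2.27). Cdc20 was highest at 1.77 from 3 and 28 UMIs, and Aurkb lowest at −0.74 (−1.90 to 0.48). Members with 0 UMIs of the division genes used were 23 of 65 and 64 of 190. Spc24, a kinetochore gene, had a log2 ratio of 0.37 (−0.09 to 0.86), and Tubb4b, a tubulin, 0.13 (−0.18 to 0.44).

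The highest ratios of all genes came from few cells or from whole libraries. Among the 10 highest with at least 100 UMIs, Stard9 had 275 of its 280 Pdcd1 cKO UMIs in 1 cell, Kng1 252 of 257, 1810046K07Rik 140 of 143, Nhsl2 256 of 276 and Osbpl10 430 of 464. That was the deepest member, with 58252 UMIs and 6231 genes. Nf1 had 215 of 233 in another cell. Without the highest cell of each library the log2 ratios of Nhsl2, Osbpl10 and Nf1 were 1.28, 2.05 and 2.72, and Stard9, Kng1 and 1810046K07Rik had too few UMIs left to compare. Of the 84 genes at least 2-fold higher, 20 had over 50% of their Pdcd1 cKO UMIs in that deepest cell, and 53 genes were at least 2-fold higher without the deepest cell of each library.

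Another 3 of the 10 were spread over many cells. Gm47854, a long noncoding RNA gene, had 0 UMIs in Pdcd1fl/fl members and 675 in 173 of the 190 Pdcd1 cKO members. With the 0 set to a floor of 3 counts over the group, it was 82.1-fold higher. Bmpr1a, a BMP receptor, had 0 and 168 UMIs and was 20.4-fold higher with the same floor. Ecpas, a proteasome adaptor, had 2 and 313 UMIs and a log2 ratio of 5.84 (3.97 to 8.89). Melanoma-gene cells showed the same split, with 0 and 363 CPM of Gm47854, 17.3 and 101 CPM of Bmpr1a and 20.2 and 187 CPM of Ecpas. These genes mark the Pdcd1 cKO tumor library as such and are no property of its CD8 cells.

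The 10 lowest ratios were Xcl1, Dapl1, Gzmc and Junb, given above, and 6 others. Nrn1, neuritin, had 124 and 46.6 CPM with a log2 ratio of −1.42 (−1.89 to −0.95), or −0.37 where 6 CD8 UMIs were required, and Snhg15, a noncoding RNA, −1.51 (−2.09 to −0.93). Ppm1g, a phosphatase, had −1.44 (−1.85 to −1.02), which became −0.89 without the highest cell of each library, since 1 control cell held 34 of 99 UMIs. Sfxn1, a mitochondrial serine carrier, had −1.11 (−1.70 to −0.50), Cck, a peptide hormone gene, −1.10 (−1.66 to −0.55), and Itm2c, a membrane protein gene, −1.04 (−1.62 to −0.45). Each was found in at least 22 control cells, so these 6 did not rest on lone cells, except in part Ppm1g.

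The spread from cell to cell was measured next, as CPM of each cell and, where cells of unlike depth would mislead, after random thinning of the cells to 1 common number of UMIs. Nkg7 was near universal, and Gzmb ranged from none to very high. The receptors other than Ctla4 gave few UMIs per cell, and how much of their spread is counting was not tested. For Nkg7 and Gzmb the medians and the 10th and 90th percentiles were higher in Pdcd1 cKO, while the lowest Gzmb value was 0 in both libraries.

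Nkg7 had a median of 1689 CPM per cell in Pdcd1fl/fl, with 328 at the 10th and 2711 at the 90th percentile. In Pdcd1 cKO the median was 2856, with 1299 and 4502. Both ends of the range were thus higher in Pdcd1 cKO. Gzmb had a median of 235 CPM in Pdcd1fl/fl, a 90th percentile of 1509 and no UMI in 38.5% of cells. In Pdcd1 cKO the median was 1205, the 90th percentile 3648, and 8.42% of cells had none. Gzmb was thus seen in part of the control cells and, at very unequal levels, in nearly all Pdcd1 cKO cells. At this depth a cell without a Gzmb UMI may still express it.

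Ctla4 had medians of 656 and 694 CPM, with 10th percentiles of 299.9 and 334 and 90th percentiles of 1216 and 1179. Srgn was alike, with medians of 588 and 638 CPM. Nearly every cell had these 2 genes, with a similar spread in both libraries, though part of the Ctla4 signal may be free RNA. Ccl5 ranged from a 10th percentile of 0 to a 90th of 2161 CPM in Pdcd1fl/fl and from 353 to 6140 CPM in Pdcd1 cKO. Xcl1 had a 75th percentile of 706 CPM in Pdcd1fl/fl and of 0 in Pdcd1 cKO, where only the top cells carried it. Lag3 had medians of 101 and 147 CPM and Pdcd1 medians of 118 and 78.5 CPM, each the value of about 1 UMI.

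**Figure D2:**
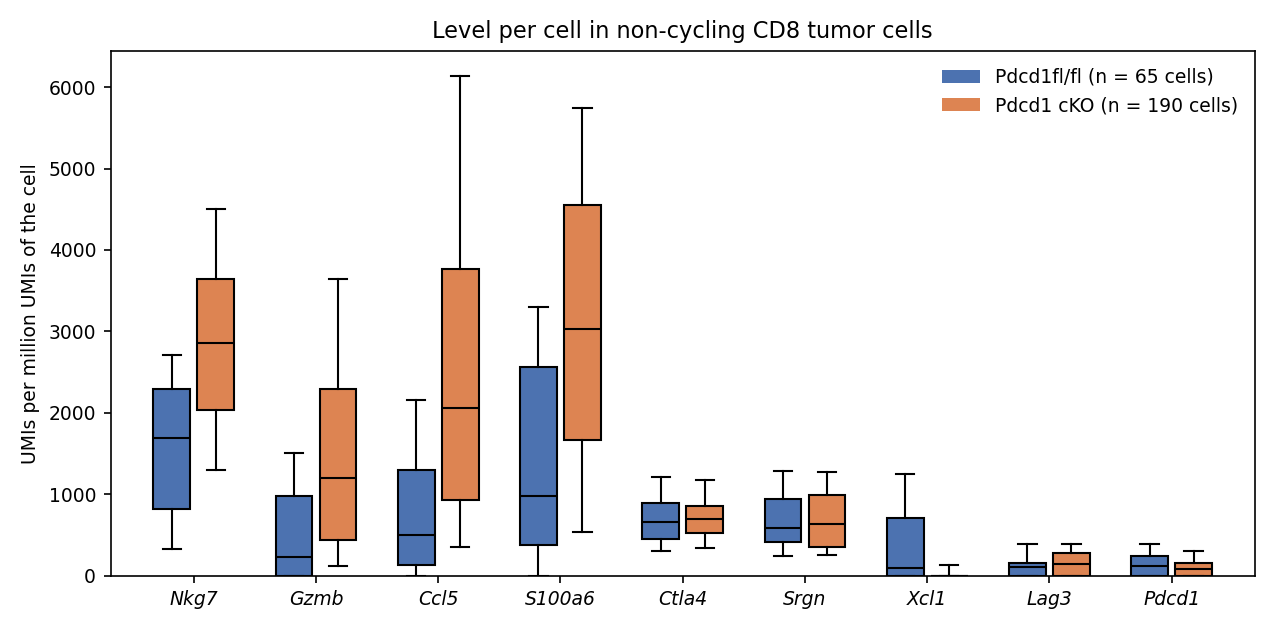
Boxes show the 25th to 75th percentiles, lines the medians and whiskers the 10th and 90th percentiles of CPM of the single cell, for 65 Pdcd1fl/fl and 190 Pdcd1 cKO non-cycling CD8 tumor cells. Nkg7, Gzmb, Ccl5 and S100a6 lie higher in Pdcd1 cKO (Gzmb medians 235 and 1205), Ctla4 and Srgn are alike, and Xcl1 is mostly in Pdcd1fl/fl.

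At 1000 UMIs per cell, Nkg7 was found in 72.3% of Pdcd1fl/fl members (Clopper-Pearson interval 59.8 to 82.7) and 92.6% of Pdcd1 cKO members (87.9 to 95.9). Unthinned it was found in 96.9% of Pdcd1fl/fl members and in 190 of 190 Pdcd1 cKO members. Melanoma-gene cells, with median depths of 32272 and 35962.5 UMIs against 8262 and 7726.5 in members, had it in 3.597% and 6.90% after thinning and 58.3% and 91.4% before. Gzmb was found in 35.4% (23.9 to 48.2) and 62.1% (54.8 to 69.0), and in 0% and 5.17% of melanoma-gene cells. Both genes were therefore far above the share in melanoma-gene cells at equal depth, though thinning removes more free UMIs from these deeper cells. Unthinned shares of Nkg7 were closer.

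Prf1 was found in 4.62% and 5.79% of thinned members and 30.8% and 45.3% of unthinned ones, a low rate at which single cells cannot be sorted into perforin-bearing and not. Gzmk was found in 12.3% and 42.1% of unthinned members, and Gzma in 10.8% and 24.7%; in melanoma-gene cells Gzmk reached 10.8% and 15.5% and Gzma 6.47% and 31.03%, at their greater depth. Gzmc was found in 27.7% and 12.6%, with 10.1% and 5.17% of melanoma-gene cells. A larger share of Pdcd1 cKO members thus had a Gzma or Gzmk UMI, and a smaller share a Gzmc UMI. For Gzma the share of melanoma-gene cells was also higher in Pdcd1 cKO, and there it exceeded that of members. The Gzma shares therefore do not show that more cells express it.

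Ctsd was found in 24.6% and 31.1% of thinned members but in 35.97% and 34.5% of thinned melanoma-gene cells. Its share in members thus did not stand above that of other cells, which may shape its ratio. The source of its UMIs was not tested. Ctla4 was found in 55.4% and 51.6% of thinned members against 17.3% and 27.6% of melanoma-gene cells. Lag3 was found in 6.15% (1.70 to 15.0) and 15.8% (10.9 to 21.8), against 0.719% and 1.72%, and Cd160 in 1.54% and 12.6%, against 0% and 3.45%. Havcr2 was found in 6.15% and 3.16%, below the 8.63% and 10.3% of melanoma-gene cells. At equal depth Ctla4, Lag3 and, in Pdcd1 cKO, Cd160 thus stood above the share in melanoma-gene cells, and Havcr2 did not. Melanoma-gene cells were deeper before thinning, which removes more of their free UMIs, so the shares do not place Ctla4 above background.

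Cells were next counted by how many of 5 receptors (Pdcd1, Lag3, Havcr2, Tigit, Ctla4) had a UMI. At 1000 UMIs, 35.4% of Pdcd1fl/fl and 35.8% of Pdcd1 cKO members had 0, 50.8% and 50.5% had 1, and 13.8% and 13.2% had 2. At least 3 were seen in 0 of 65 cells (up to 5.52%) and 1 of 190 cells (0.526%, 0.0133 to 2.90). The libraries were alike, and hardly any cell could be shown to carry several receptors at this depth. At 3000 UMIs the share with at least 3 was 18.5% and 14.7%, at 5000 UMIs 43.1% and 36.8%, and unthinned 58.5% and 56.8%. The share thus rose with the number of UMIs kept in both libraries, and it is no count of exhausted cells.

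**Figure D3:**
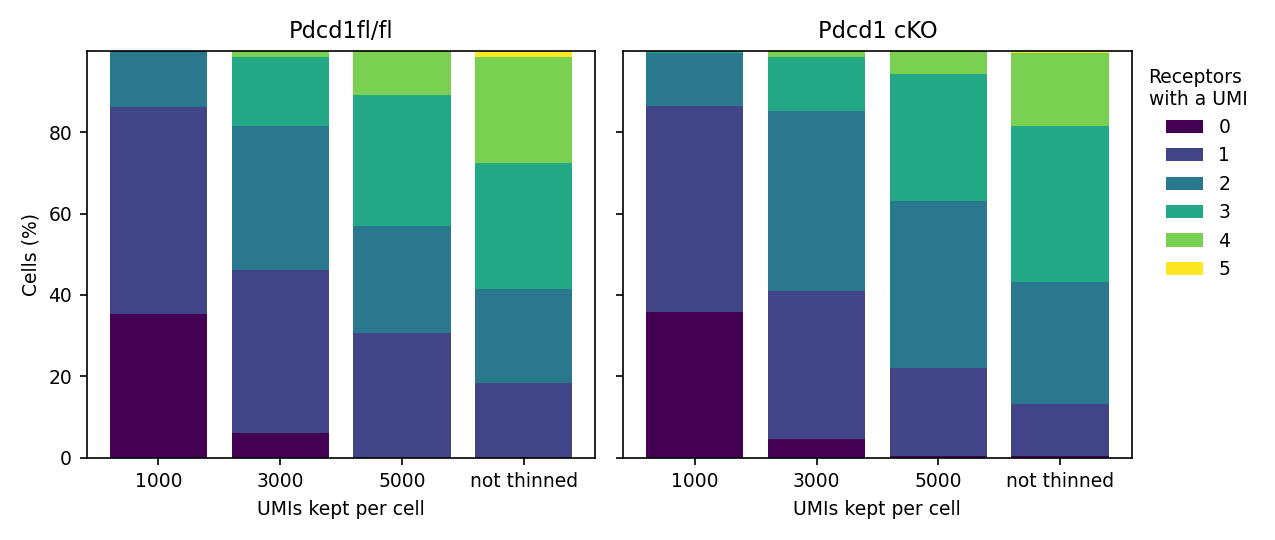
Bars show the percentage of non-cycling CD8 tumor cells with UMIs of 0 to 5 of the receptors Pdcd1, Lag3, Havcr2, Tigit and Ctla4, by the number of UMIs kept per cell, for 65 Pdcd1fl/fl and 190 Pdcd1 cKO cells. The libraries look alike at 1000 UMIs but not in every class at 5000 UMIs (41.1% and 26.2% with 2 in Pdcd1 cKO and Pdcd1fl/fl), and cells with at least 3 receptors go from 0% and 0.526% at 1000 UMIs to 58.5% and 56.8% without thinning.

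Killing genes and inhibitory genes were summed per cell (without genes of the selection) and ranked against each other within each library. At 1000 UMIs the Spearman correlation was 0.04 across the 65 Pdcd1fl/fl cells and 0.12 across the 190 Pdcd1 cKO cells. At 5000 UMIs it was −0.10 and 0.07. Unthinned it was 0.38 and 0.42, where depth enters both sums. Apart from depth, then, no relation between the sums was seen, but the inhibitory sum averaged only 1.18 and 1.35 UMIs at 1000 UMIs (7.14 and 7.12 at 5000), too few to exclude one. Cells of 1 library share their mice and their free RNA, so the values describe the library and carry no test.

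Single genes did pair in places. At 5000 UMIs, Gzmb with Nkg7 gave 0.46 in Pdcd1fl/fl and 0.08 in Pdcd1 cKO, and Gzmb with Ccl5 gave 0.45 and 0.15. Nkg7 with Ccl5 gave 0.33 and 0.46, and Gzmb with S100a6 0.40 and 0.29. Gzmb with Pdcd1 gave 0.43 in the control library and 0.10 in Pdcd1 cKO, while Gzmb with Lag3 gave 0.01 in both. Xcl1 with Ccl5 was negative, −0.30 and −0.29. At 1000 UMIs, with fewer counts, the control values were weaker for Gzmb with Nkg7 (0.14) and with Ccl5 (0.19), and Xcl1 with Ccl5 gave 0.05; Gzmb with Pdcd1 gave 0.47 there and −0.11 in Pdcd1 cKO. At 5000 UMIs control cells rich in Gzmb thus also tended to be rich in Nkg7, Ccl5 and Pdcd1, and Xcl1-bearing cells to be poor in Ccl5; the difference between libraries was not tested.

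Splitting members by Gzmb after thinning to 3000 UMIs showed what goes with it. Gzmb was present in 34 of 65 Pdcd1fl/fl cells (52.3%, 39.5 to 64.9) and 162 of 190 Pdcd1 cKO cells (85.3%, 79.4 to 90.0). Cells at the edge, with exactly 1 UMI, numbered 6 and 30. Median depths with and without Gzmb were 9995.5 and 7419 UMIs in Pdcd1fl/fl and 7950.5 and 7514.5 in Pdcd1 cKO, so the control split also separates by depth to some extent. The sums below use all UMIs of the cells.

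Cells with Gzmb held more of some other killing genes. Prf1 had 8.28 CPM without and 67.5 CPM with Gzmb in Pdcd1fl/fl (2 and 26 UMIs, log2 ratio 3.03, 1.03 to 6.15), and 34.0 and 111 CPM in Pdcd1 cKO (1.70, 0.69 to 2.94). Gzmc was almost limited to them, with 131 of 132 UMIs in Pdcd1fl/fl and 135 of 137 in Pdcd1 cKO. Serpinb9 rose with Gzmb by log2 ratios of 1.59 (0.59 to 2.74) and 1.81 (0.54 to 3.46), so the inhibitor was found with its protease in both libraries. Nkg7 rose by 0.73 (0.53 to 0.93) and 0.25 (0.12 to 0.38). Others of the list did not: Srgn (−0.04 and −0.19) and Ctsw (−0.12 and −0.13) had intervals that included 0, and Stxbp2 was lower with Gzmb in Pdcd1 cKO (−1.10, −2.01 to −0.11).

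Inhibitory genes did not follow as a group. Pdcd1 had 70.3 CPM without and 218 CPM with Gzmb in Pdcd1fl/fl (log2 ratio 1.63, 0.87 to 2.48), and 72.1 and 117 CPM in Pdcd1 cKO (0.69, −0.03 to 1.51). Lag3 went the other way in the control library, with 194 and 117 CPM (−0.74, −1.36 to −0.11), and Ctla4 slightly so, with 807 and 623 CPM (−0.37, −0.65 to −0.09). In Pdcd1 cKO the ratios of Lag3 (−0.27, −0.75 to 0.23) and Ctla4 (−0.07, −0.31 to 0.17) did not differ from 0 beyond counting error. Control cells with Gzmb were therefore richer in Pdcd1; the Lag3 sums rest on 47 and 45 UMIs, 12 of them in 1 cell, and ranks of Gzmb and Lag3 across cells showed no relation.

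Most Dapl1 UMIs lay in cells without Gzmb: they held 58 of 60 in Pdcd1fl/fl, where 1 cell had 24, and 32 of 43 in Pdcd1 cKO, where they were 28 of 190 cells. Summed Xcl1 was 488 CPM without and 540 CPM with Gzmb in Pdcd1fl/fl (log2 ratio 0.14, −0.19 to 0.48), a sum in which 1 cell holds 94 of 326 UMIs, and 272 and 39.8 CPM in Pdcd1 cKO (−2.77, −3.31 to −2.24). Tox was lower with Gzmb in Pdcd1fl/fl (−1.67, −3.22 to −0.27) and level in Pdcd1 cKO (0.31, −0.64 to 1.43). Dapl1 was thus richer in cells without Gzmb in both libraries, and Xcl1 clearly so in Pdcd1 cKO alone.

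The genotype difference was also taken within each side of the split. Among cells with Gzmb, the log2 ratio of Pdcd1 cKO over Pdcd1fl/fl was 0.75 for Gzmb itself (0.60 to 0.90), 0.52 for Nkg7 (0.41 to 0.64), 0.71 for Prf1 (0.11 to 1.37), 1.61 for Gzma (0.76 to 2.60) and 1.36 for Ccl5 (1.21 to 1.51). Among cells without Gzmb, it was 1.01 for Nkg7 (0.80 to 1.22) and 2.31 for Ccl5 (2.00 to 2.63). Gzmb itself differed on that side too, at 37.2 and 135.8 CPM (1.87, 0.77 to 3.12), since cells counted as without it at 3000 UMIs could hold some. Nkg7 and Ccl5 were thus higher in Pdcd1 cKO on both sides of a split that Gzmb itself defines. Pdcd1 was lower in Pdcd1 cKO among cells with Gzmb (218 and 117 CPM, −0.90, −1.29 to −0.51) and level among cells without (70.3 and 72.1 CPM, 0.04, −1.02 to 1.10). Ctla4 and Lag3 had intervals that included 0 on both sides.

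A split by Xcl1 at the same depth divided 28 of 65 Pdcd1fl/fl cells (43.1%, 30.8 to 56.0) and 17 of 190 Pdcd1 cKO cells (8.95%, 5.30 to 13.9) from the rest. In both libraries cells with Xcl1 had less Ccl5 (log2 ratios −1.63 and −1.39) and less Gzmb (−1.20 and −1.13), and more Dapl1 (3.16 and 2.98). The Pdcd1 cKO cells with Xcl1 include the deepest member, which held 86 of their 149 Gzmb UMIs. Lag3 was higher with Xcl1 in Pdcd1fl/fl, at 88.1 and 227 CPM (1.37, 0.72 to 2.03), but not in Pdcd1 cKO, at 155 and 156 CPM (0.01, −0.60 to 0.57). Of the cells with Xcl1, 8 and 8 were in by exactly 1 UMI, and 7 and 12 of those without had some unthinned. Within these limits cells with Xcl1 were Dapl1-rich and Gzmb-poor in each library, and this set was a much larger share of the control members. A split by Lag3 separated 32.3% and 34.2% of cells, 14 and 47 of them by a single UMI, and is too noisy to describe further.

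Genes whose counts varied beyond what their mean predicts were ranked by the excess of the Fano factor (variance over mean, cells thinned to 1000 UMIs) over genes of similar level, taking the smaller value of the 2 libraries among 815 genes. The 10 highest were Tmsb4x (actin sequestering), Bc1 (a small noncoding RNA), Lgals1 (galectin-1), Ccl5, Ifi27l2a (interferon-induced), Spidr (DNA repair), S100a6, Ly6c2, Gzmb and Plac8. Their excess was 4.24 and 3.62 for Tmsb4x, 2.19 and 2.85 for Ccl5 and 1.62 and 1.82 for Gzmb in Pdcd1fl/fl and Pdcd1 cKO. Plac8, a gene of effector and myeloid cells, had 3.12 and 1.51. Gzmb and Ccl5 were thus among the most uneven genes of these cells in both libraries. Most inhibitory receptors were too sparse to be ranked.

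The most similar cells of the same libraries are the dividing CD8 cells, which pass the same selection except for the division genes. Non-cycling cells had less Gzmb than dividing cells in both libraries, and less Prf1 in Pdcd1fl/fl. In Pdcd1fl/fl the median log2 ratio of non-cycling over cycling cells was −0.72 (−0.83 to −0.14) for 21 cytotoxic genes, 2 of them above 0, beside −0.25 for all genes. In Pdcd1 cKO it was 0.09 (−0.17 to 0.24) for 24 genes, 14 above 0, beside −0.05. The inhibitory list had −0.08 and −0.02, and the progenitor list −0.02 and −0.23.

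By gene, Gzmb had 705 CPM in non-cycling and 1263 CPM in cycling Pdcd1fl/fl cells (log2 ratio −0.84, −0.99 to −0.69), against 1648 and 1896 CPM in Pdcd1 cKO (−0.20, −0.27 to −0.14). Prf1 had 44.7 and 88.8 CPM in Pdcd1fl/fl (−0.99, −1.63 to −0.39) and 100.1 and 85.9 CPM in Pdcd1 cKO (0.22, −0.07 to 0.51). Nkg7 was close in both classes of cell (−0.07 and −0.08). Non-cycling control cells thus had less Gzmb and Prf1 than dividing ones, and in Pdcd1 cKO the classes were nearer to each other; the difference was not tested. Pdcd1 was lower in non-cycling cells of both libraries (−0.53, −0.87 to −0.21, and −0.78, −1.03 to −0.54), and Xcl1 was higher (0.96, 0.75 to 1.18, and 0.58, 0.21 to 0.94).

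Between genotypes, cycling cells showed the same direction as members for Gzmb (0.59, 0.51 to 0.66), Nkg7 (0.74, 0.67 to 0.80), Ccl5 (1.41, 1.32 to 1.51), Gzmc (−2.57, −2.83 to −2.31) and Xcl1 (−2.47, −2.77 to −2.19), but not for Prf1 (−0.05, −0.36 to 0.27). In Ccr7-high cells Nkg7 was nearly level (−0.12, −0.25 to −0.00), Gzmb was low in both libraries (241 and 282 CPM) and Xcl1 was high in both (1121 and 787 CPM). Members had less Xcl1 than the Ccr7-high cells of their own library (log2 ratios −1.11 and −3.46). Gzma (1.17, 0.03 to 2.30), Gzmk (1.45, 0.38 to 2.53) and Ccl5 (0.71, 0.50 to 0.93) were higher in Pdcd1 cKO among Ccr7-high cells too. The Nkg7 and Gzmb differences were thus seen in Ccr7-low cells, dividing or not, while those of Gzma, Gzmk and Ccl5 were also seen in Ccr7-high cells.

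**Figure D4:**
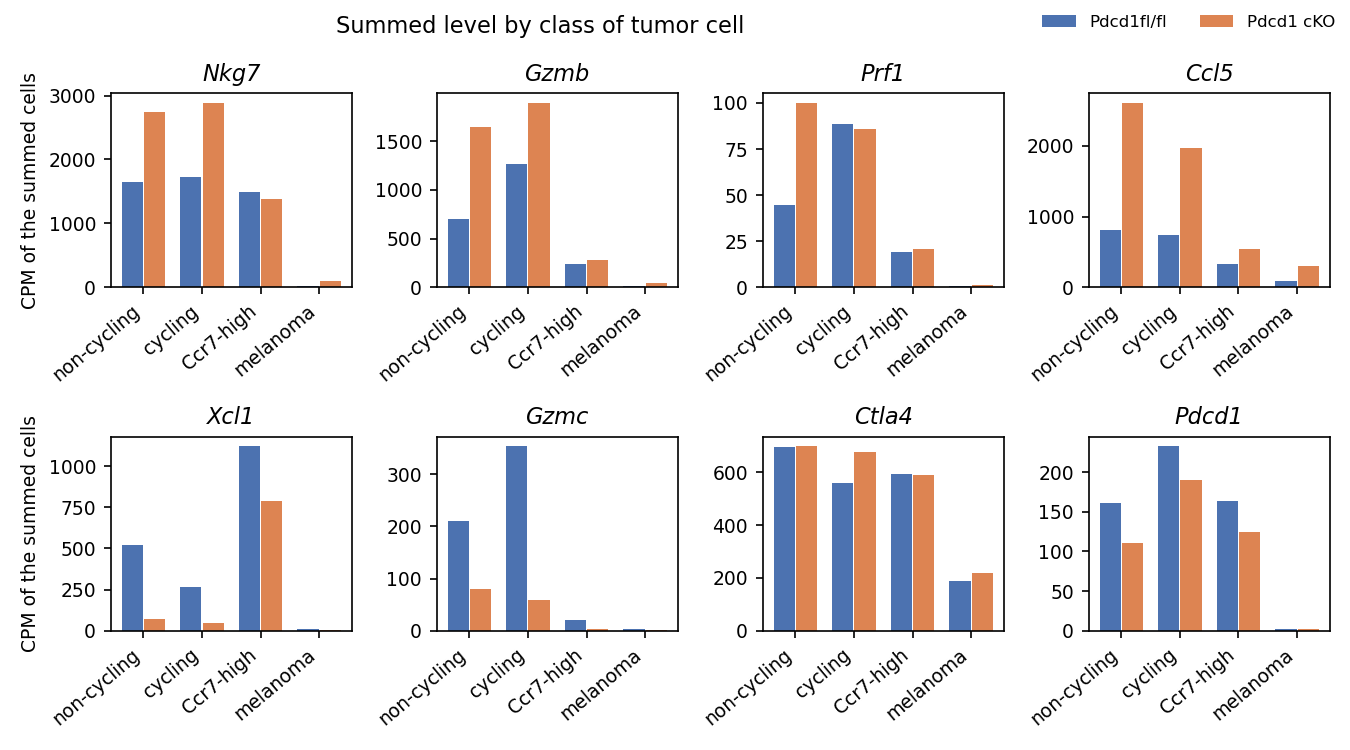
Bars show CPM of the summed cells of 4 tumor cell classes in Pdcd1fl/fl and Pdcd1 cKO (65 and 190 non-cycling, 88 and 210 cycling, 100 and 36 Ccr7-high CD8 cells, and 139 and 58 cells with melanoma genes). Nkg7, Gzmb and Ccl5 are higher in Pdcd1 cKO in both Ccr7-low classes, and Prf1 in the non-cycling one. The difference in Prf1 between the classes was not tested. Ctla4 (190 and 217 CPM) and Ccl5 (82.8 and 294 CPM) also show in melanoma-gene cells.

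Splenic cells that pass the same selection numbered 161 and 1426, with median depths of 1603 and 1918 UMIs. They came from libraries labelled baseline, so that tissue, tumor growth, mouse, library and depth cannot be told apart. Tumor members over splenic cells had a median log2 ratio of 1.98 (13 cytotoxic genes) for the pair labelled Pdcd1fl/fl and 1.03 (24 genes) for the pair labelled Pdcd1 cKO, beside −0.31 and −0.80 for all genes. Gzmb had 6.94 CPM in the spleen and 705 CPM in the tumor for Pdcd1fl/fl, and 28.3 and 1648 CPM for Pdcd1 cKO. Klf2 had 1210.3 CPM in the spleen and 33.5 CPM in the tumor, and 966 and 8.15 CPM. Ccl5 was higher in the spleen, at 4155 and 8748 CPM. Lag3 had 0 UMIs in splenic Pdcd1fl/fl cells and 10.8 CPM in splenic Pdcd1 cKO cells. Tumor members were thus high in granzyme B and Lag3 and low in the homing factor Klf2, and the progenitor list was low in the tumor in both pairs (−3.38 and −3.53).

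Markers of other lineages were checked in members. The CD4 and regulatory T cell list summed to 734 and 717 CPM, nearly all of it Ctla4, with Cd40lg at 0. The NK list summed to 600 and 157 CPM, of which Xcl1 gave 520 and 71.6 CPM. Tyrobp, a signalling adaptor of NK and myeloid cells named after its values were seen, had 2 and 36 UMIs. Its log2 ratio was 2.72 (0.76 to 5.82). Fcer1g, which macrophage-gene cells held at 1915 and 3021 CPM, had a UMI in 9.23% and 28.9% of members. The source of Tyrobp and Fcer1g was not tested. The γδ T cell list summed to 0 and 2.33 CPM, with Trdv4 and Trgv2 at 0 and 4 of its 8 genes not analysed here. The macrophage list summed to 1509 and 1963 CPM, led by Plac8, which effector CD8 cells also express, with Ms4a7 at 0. Melanoma genes summed to 324 and 272 CPM (Dct highest, Cdh19 at 0). The melanoma and macrophage lists hold genes that the selection limited, so their sums describe the members and test nothing.

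Dendritic and MHC class II genes summed to 94.1 and 228 CPM (Cd74 highest, with Xcr1, Clec9a, Cd209a, Siglech and Ccl22 at 0), and B cell genes to 49.4 and 101 CPM (Igkc highest, with Cd79a and Ms4a1 at 0). Stromal genes summed to 95.7 and 136 CPM, nearly all Cdh5, with Cldn5, Col1a1, Col3a1, Dcn and Kdr at 0. Neutrophil genes (1.59 and 2.91 CPM; Cxcr2 highest, with Csf3r, Ly6g, Retnlg and S100a8 at 0) and red cell genes (1.59 and 0.582 CPM; Hbb-bs highest, with Alas2, Hba-a2 and Hbb-bt at 0) were all but missing. The class II and B cell sums were higher in Pdcd1 cKO, the latter through the immunoglobulin gene Igkc (14.4 and 64.6 CPM); their source was not tested. The Y-linked Ddx3y had 321 and 330.1 CPM, so both pools held male cells at a similar level.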

How the data were processed

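The deposited matrices hold, per the labels, UMI counts per gene and barcode as the authors made them; values were checked to be whole numbers, so the unit is a count. The submitters' processing notes name Seurat 4.3.0 and the mouse genome GRCm39; the annotation release is not stated. Coordinates come from GENCODE vM39, in which 732 of 732 gene IDs named here were found. Matrices were aligned by gene ID (32227 genes). Cells were filtered and chosen by raw UMIs as the report describes, and UMIs were summed over cells and divided by the cells' total UMIs (CPM).

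Intervals are 95%: exact Poisson for CPM, exact conditional binomial for log2 ratios, Clopper-Pearson for shares and order statistics for list medians. Those for CPM, log2 ratios and shares were tested on simulated counts, which were drawn without clustering in single cells. The real UMIs of some genes do cluster, which these intervals leave out. The interval for list medians was not tested. No test between genotypes was made, since there is 1 library per genotype and tissue. A gene at 0 in a library was set to a floor of 3 counts over the group. Shares of cells, the Fano factor (window of 101 genes, mean of at least 0.1) and correlations used cells thinned at random without replacement to 1000 UMIs, with 3000 and 5000 UMIs and no thinning beside them. Sums per cell left out genes of the selection. Scrublet in scanpy 1.11.5 (20 components) called 0 of 456 and 2 of 561 filtered tumor cells as doublets, 2 of them members; none was removed in the values reported.

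Genes, except where the report says otherwise, were named by a rule written before the files were opened: Pdcd1; members of the cytotoxic and inhibitory lists with at least 20 UMIs over both libraries; of each other list the highest, the lowest and up to 4 of known role; the 10 highest and 10 lowest log2 ratios (0.5 added) among genes with at least 100 UMIs; genes the study names for its tumor cells, without those of the selection; the 10 genes with the highest Fano excess; and markers of other lineages as sums. The members and the lists the rule draws on were chosen with earlier results of these data known. Genes of the per-cell, split and class comparisons were picked from these names. Alternatives changed scaling, weighting of cells, each selection limit, doublet removal, minimum UMIs, fold and thinning depth. Other thymus and spleen cells were left out, and a few genes that the rule or the lists name are not reported here.

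Software was Python 3.11.15 with numpy 2.4.6, scipy 1.17.1, pandas 2.3.3 and matplotlib 3.10.9.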

Additional observations from a re-analysis of the deposited data

Results flagged for a closer look

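In cycling CD8 tumor cells 5 named genes had log2 ratios of Pdcd1 cKO over Pdcd1fl/fl of the opposite sign to the non-cycling cells, with both intervals excluding 0. These were −0.20 for Bc1, −0.18 for Ldha, −0.32 for Spidr, −0.28 for Tnfrsf9 and −0.71 for Unc13d. In non-cycling cells the same genes had 0.81, 0.24, 0.82, 0.18 and 2.12, and the value of Unc13d there rested on 1 deep cell (0.40 without it). Under other choices of cells the others also came to near 0 or below: −0.0386 for Bc1, 0.02 for Ldha, 0.02 for Spidr and 0.04 for Tnfrsf9. The difference was not tested.

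Cells with melanoma genes, which the comparisons of CD8 cells do not use, also carried the RNAs that set the libraries apart. In Pdcd1 cKO they had 363 CPM of Gm47854, 101 CPM of Bmpr1a and 187 CPM of Ecpas, and in Pdcd1fl/fl they had 137 CPM of Tafa2. The difference was not tested.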

How the results depend on the processing

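A value is called reversed when its interval excluded 0 and an alternative gave the other sign. Over 22 main results, 114 of 137 alternatives stayed within the interval, 23 moved and 0 reversed; 16 results never moved. Of all 137, 15 changed the sign of a value whose interval included 0, the median of the inhibitory list among them. The log2 ratio of Pdcd1 ranged from −0.84 to −0.43, the median of the cytotoxic list from 0.33 to 0.81, of the inhibitory list from −0.25 to 0.24 and of the progenitor list from −1.65 to −0.09. For 126 named genes, 1416 of 1616 alternatives stayed within the interval, 195 moved and 5 reversed; in all, 74 changed sign, in 31 genes, and 69 of these had intervals that included 0. Gzmb ranged from 0.94 to 1.46, Nkg7 from 0.58 to 0.87, Prf1 from 0.91 to 1.78, Ccl5 from 1.48 to 1.92, Xcl1 from −3.35 to −2.30 and Ctla4 from −0.12 to 0.21. Of values whose interval excluded 0, some came close to 0 under an alternative: Spidr and Ldha reached 0.02, Id2 and Tnfrsf9 0.04, Coro1a 0.07, Ctsw 0.11, Satb1 −0.10 and Ifng 0.000698.

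The reversed values were Gzmc at 0.98 in cells with no cycling-gene UMI, Tcf7 at 0.11 with at least 6 Cd8 UMIs, Bc1 at −0.0386 in cells with no Ccr7 UMI, and B2m at −0.00341 (median of ratios) and −0.00903 (total without mitochondrial, ribosomal protein and Malat1 counts). For B2m the scaling shift is the cause by construction; for the others the cause was not tested.

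The 84 genes higher in Pdcd1 cKO became 44 with melanoma genes under 5 UMIs, 47 with macrophage genes under 2 UMIs, 835 with genes of at least 20 UMIs and 48 at 3-fold. Chosen after seeing the data, leaving out the deepest cell of each library gave 53, the 2 deepest 45, and each gene's highest cell 54. The 11 lower genes became 20 under either scaling, 4 with no cycling-gene UMI, 4 with at least 6 Cd8 UMIs, 7 with no Ccr7 UMI, 228 with genes of at least 20 UMIs, 2 at 3-fold and 5 without each gene's highest cell. Both scalings moved the median of genes with at least 100 UMIs from 0.13 to 0.00 and the split from 84 higher and 11 lower (88.4% higher) to 68 and 20 (77.3%). Fewer cells or more genes explain part of the selection and minimum changes by construction; the rest of the cause was not tested.

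The share with at least 3 receptors went from 0% and 0.526% to 18.5% and 14.7% at 3000 UMIs, 43.1% and 36.8% at 5000 UMIs (added after seeing the data) and 58.5% and 56.8% without thinning. The correlation of the sums was 0.38 and 0.42 without thinning. For the share, depth is the cause by construction. For the correlation, thinning removed shared depth and also lowered the counts, and these were not separated.

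Counts at or under the floor gave no value in 5 of 13 alternatives for Stard9, Kng1 and 1810046K07Rik and in 1 each for Nf1 and Nr4a1. No paired analysis was possible because the labels pair no mice, and no library could be left out with 1 library per group.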

Other observations

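Trbc1 followed Gzmb in opposite directions, with log2 ratios of cells with over without Gzmb of 0.94 in Pdcd1fl/fl and −0.71 in Pdcd1 cKO. The difference was not tested.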
